A study of Homo sapiens with 18 samples.

Results

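The 50 genes described here encode proteins that take a cell into mitosis, build the spindle and the kinetochores, check chromosome attachment and carry out anaphase and cytokinesis. They were taken from a list of mitotic genes that leaves out the KIF-named kinesins and keeps the kinesin CENPE, and each is given by its brightest probe, ranked on the mean of the 18 arrays, a choice that uses no difference between groups. All 50 were found among the 19782 genes named on the array. All 50 also had a mean at or above the median of all probes, 5.72 log2 units, which was the condition for testing and left 12483 genes. More than 1 probe was present for 21 of them.

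Total RNA of cells labelled HepG2, a line from a human liver carcinoma, was hybridised to Illumina bead arrays of 1 colour. The cells had been transfected with si-PSTAR, which targets the long noncoding RNA PSTAR, with si-hnRNP K, which targets the HNRNPK gene product, or with a scramble control siRNA. The 6 groups, with 3 arrays each, were si-PSTAR with doxorubicin (DOX, a drug that damages DNA), si-hnRNP K with DOX, scramble with DOX, si-PSTAR without drug, si-hnRNP K without drug and scramble without drug. The DOX dose was 400 nM, and every group received an siRNA. The exposure is taken as the 16 hours of the study's design description, since the treatment protocol names more than 1 exposure time. Whether the 3 arrays of a group hold RNA of separate cultures is not stated, so the p-values rest on a spread between arrays that may be technical, and the number of arrays limits the precision. In bulk RNA, fewer cells in mitosis and less RNA of these genes per cell cannot be told apart.

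Some features of the whole series touch every comparison. HNRNPK ran against the labels: in arrays labelled si-PSTAR it differed from scramble arrays by -3.63 log2 units with DOX and by -3.28 without drug (limma adjusted p = 2.89e-19 and 2.34e-19), and in arrays labelled si-hnRNP K by -0.59 and -0.17 (limma adjusted p = 5.13e-05 and 0.222). Groups are therefore named as labelled. The arrays fell into 2 clusters, the smaller made of the 3 si-hnRNP K and 3 scramble arrays without drug, the larger of the other 12. Across genes, 2 arrays of the smaller cluster correlated at 0.978 or more, 2 of the larger at 0.957 or more, and 1 of each at 0.963 or less. Of 9 hepatocyte markers named on the array, 3 (ALB, TTR and SERPINA1) had a mean above the median of all probes, while AFP, APOA1, APOA2, APOB, FGB and TF lay below it. The summed intensity of the 9 was 525 to 555 in DOX-treated arrays labelled si-PSTAR, 793 to 839 in those labelled si-hnRNP K and 490 to 519 in scramble arrays with DOX, and 514 to 561, 732 to 811 and 476 to 490 in the same groups without drug. Of 5 fibroblast markers, 3 lay above the median, and the sums in the same order were 1287 to 1471, 500 to 624 and 827 to 974 with DOX, and 1232 to 1331, 418 to 431 and 630 to 735 without. The markers did not move as a class: DCN averaged 10.06, 7.55 and 8.86 log2 units in the groups with DOX, while COL1A1 averaged 7.18, 7.78 and 8.06. Endothelial markers (2 of 5 above the median) summed to 238 to 245, 391 to 468 and 339 to 355 with DOX, and to 223 to 233, 317 to 342 and 257 to 262 without. Leukocyte markers (3 of 5) summed to 400 to 424, 350 to 362 and 355 to 375 with DOX, and to 391 to 598, 484 to 552 and 503 to 555 without. The part of these markers in the results below was not tested.

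Entry into mitosis is driven by CDK1 bound to cyclin A or cyclin B, is switched on by CDC25 phosphatases and is supported by polo-like and aurora kinases. Many genes of this programme are transcribed late in the cell cycle from promoters that carry CCAAT boxes and a cell cycle homology region (CHR), where activating complexes with MYBL2 and FOXM1 or the repressive DREAM complex bind. After DNA damage, p53 and p21 (encoded by CDKN1A) are known to shift such promoters towards DREAM and repression.

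Relative to each gene's mean over all arrays, the median of the 50 genes was lowest in DOX-treated si-hnRNP K arrays (-0.29, -0.21 and -0.26 log2 units) and DOX-treated scramble arrays (-0.20, -0.17 and -0.21). It was highest in untreated si-PSTAR arrays (0.27, 0.35 and 0.33). DOX-treated si-PSTAR arrays (0.01, -0.08 and -0.10), untreated si-hnRNP K arrays (-0.03, -0.05 and -0.12) and untreated scramble arrays (0.11, 0.06 and 0.06) lay between, and the first 2 of these groups overlapped. Where groups lie in different clusters, their order cannot be told apart from the cluster. The place of untreated si-PSTAR above untreated scramble arrays also depends on the probe. Over 20 genes with a second probe, that median difference was 0.47 on the brightest probe and -0.64 on the second.

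**Figure D1:**
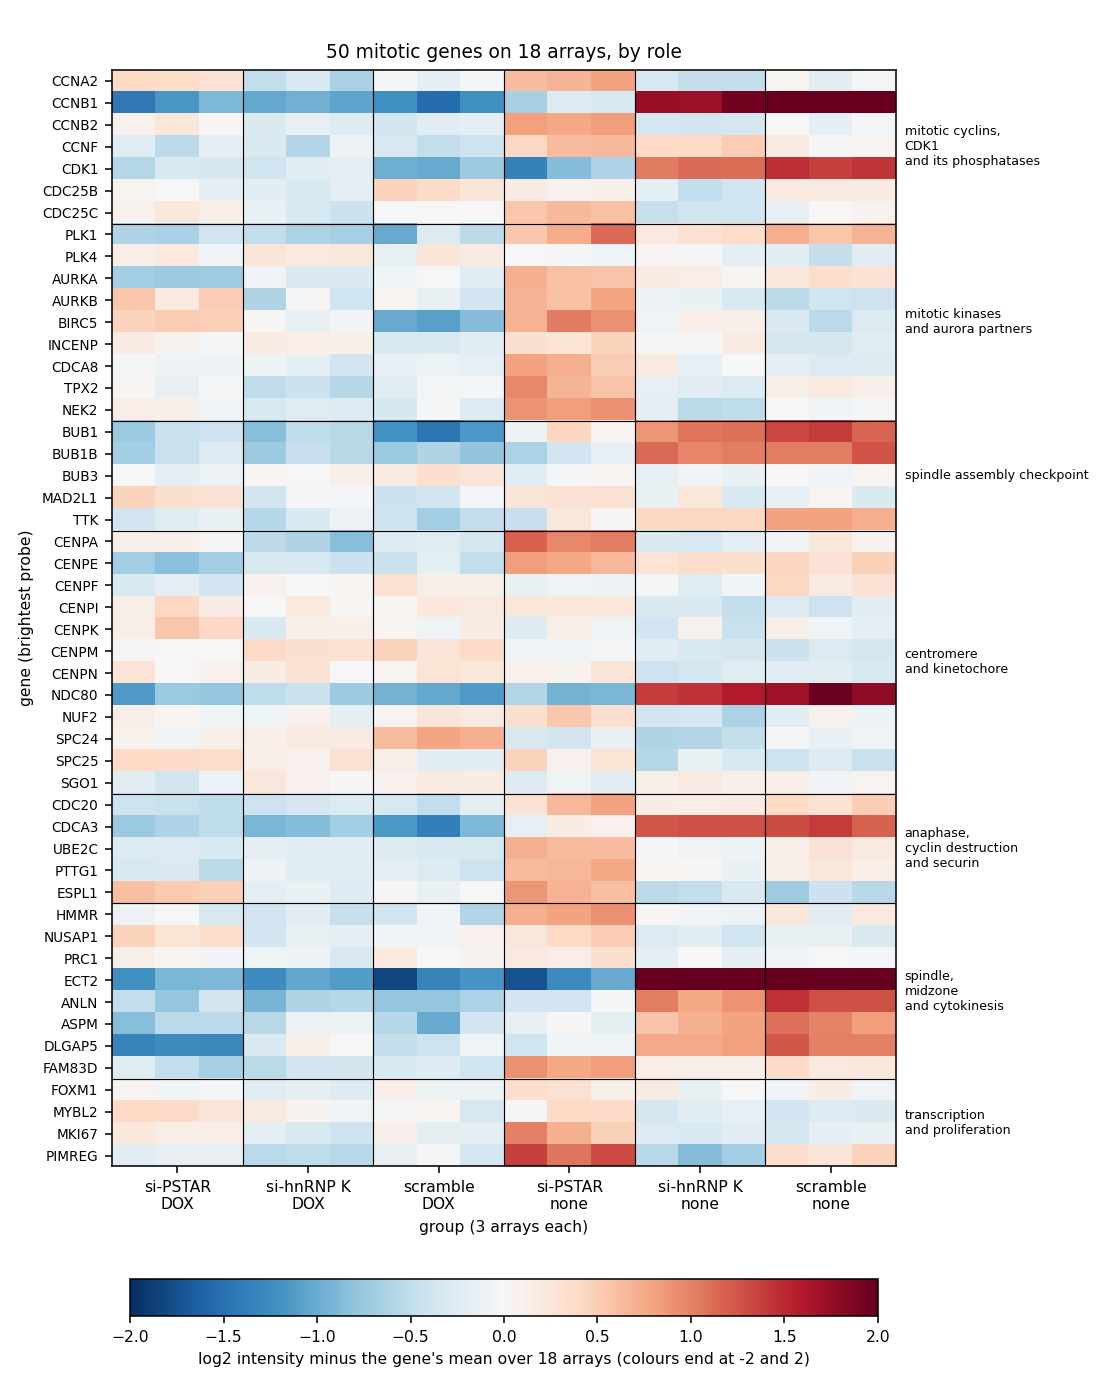
Log2 intensity of each of the 50 genes (rows, ordered by role) on each of 18 arrays (columns, 3 per group), as the difference from the gene's mean over all arrays; colours end at -2 and 2. Many genes are highest, on their brightest probes, in untreated si-PSTAR arrays, and for several the order against untreated scramble arrays reverses on a second probe. A block that includes ECT2, CCNB1, NDC80 and CDK1 is high on the 6 arrays of the smaller cluster.

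In arrays labelled si-PSTAR, both of whose drug conditions lie in the larger cluster, 26 of the 50 genes were lower and 3 were higher with DOX than without (limma, adjusted p under 0.05 over all genes tested). Among all 12483 genes, 7.69% were lower and 10.2% higher in the same comparison. The median difference was -0.31 log2 units for the 50 genes and 0.021 for all genes. The 3 arrays of one condition lay wholly below those of the other for 31 of the 50 genes and wholly above for 4, against 13.3% and 17.2% of all genes. Falls of at least 2-fold were seen for 8 of the 50, and the share of all genes with such a fall was not counted.

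Of the mitotic kinases and aurora partners, 7 of 9 fell. PLK1, the polo-like kinase of mitotic entry and spindle assembly, stood at 6.25, 6.20 and 6.44 log2 units on the DOX-treated si-PSTAR arrays, against 7.38, 7.58 and 7.98 on the untreated ones. AURKA, the aurora kinase of centrosomes and spindle poles, stood at 10.37, 10.32 and 10.35 with DOX and at 11.76, 11.65 and 11.63 without. Neither gene's arrays overlapped between the conditions, and the differences were -1.35 ± 0.14 for PLK1 and -1.34 ± 0.09 for AURKA (SE; limma adjusted p = 2.92e-07 and 4.72e-11). NEK2, a centrosome kinase, fell by 0.82, TPX2, the spindle activator of AURKA, by 0.79, and CDCA8, BIRC5 and INCENP, which form the chromosomal passenger complex with AURKB, by 0.75, 0.41 and 0.28. AURKB itself differed by -0.26 (adjusted p = 0.175) and PLK4, the kinase of centriole duplication, by 0.14 (adjusted p = 0.398).

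Of the cyclins, CDK1 and its phosphatases, 5 of 7 fell and 1 rose. CCNB1, the B-type cyclin that drives mitotic entry, stood at 6.39, 6.65 and 6.92 with DOX, against 7.16, 7.55 and 7.50 without. CCNA2, a cyclin of S phase and early mitosis, stood at 10.28, 10.25 and 10.16 with DOX, against 10.50, 10.57 and 10.68 without. Both cyclins were separated between the conditions and fell by 0.75 ± 0.12 and 0.35 ± 0.10 (SE). CCNF, an F-box protein that limits centrosome duplication, fell by 0.89, CCNB2 by 0.69 and CDC25C by 0.46, while CDC25B differed by -0.16 (adjusted p = 0.241). CDK1 moved the other way: it stood at 9.06, 9.33 and 9.31 with DOX, against 8.28, 8.76 and 9.03 without, a difference of 0.55 ± 0.13 (SE; adjusted p = 0.00435), and its dimmer second probe differed by 0.22 (adjusted p over all probes = 0.359).

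**Figure D2:**
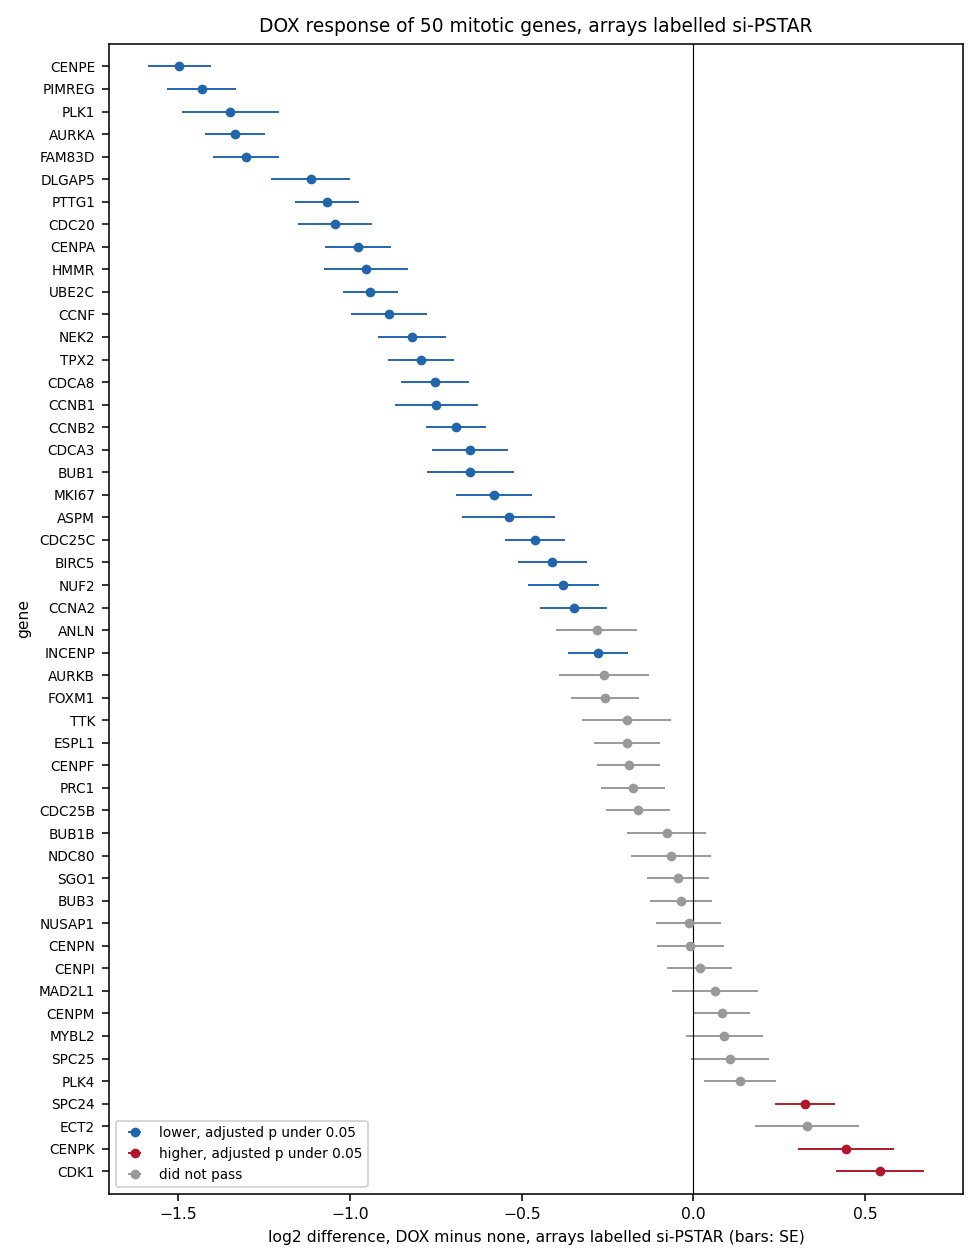
Log2 difference, DOX minus no drug in arrays labelled si-PSTAR, for each of the 50 genes (points; bars are standard errors), coloured by limma call. The falls run to -1.50 for CENPE, and CDK1, CENPK and SPC24 are the genes called higher.

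Genes of anaphase and cyclin destruction fell as well, 4 of 5. CDC20, the activator of the anaphase-promoting complex, stood at 11.00, 10.96 and 10.91 with DOX, against 11.70, 12.08 and 12.22 without, and fell by 1.04 ± 0.11 (SE; adjusted p = 2.41e-07). All 3 treated arrays lay below the untreated ones. The securin gene PTTG1 fell by 1.07, UBE2C, the ubiquitin-conjugating enzyme of that complex, by 0.94 and CDCA3 by 0.65, whereas ESPL1, the separase that cleaves cohesin, differed by -0.19 (adjusted p = 0.175). A dimmer second probe of UBE2C differed by -0.17 (adjusted p over all probes = 0.339), so its size rests on the brightest probe.

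The centromere and kinetochore genes were mixed, with 3 of 12 lower and 2 higher. CENPE, a kinesin that links kinetochores to microtubules, stood at 7.60, 7.45 and 7.61 with DOX, against 9.13, 9.06 and 8.96 without. This was the largest fall among the 50, -1.50 ± 0.09 (SE; adjusted p = 1.64e-11), and the second CENPE probe fell by 0.93. CENPA, the histone H3 variant that marks centromeres, fell by 0.98 and NUF2, a subunit of the NDC80 complex that grips microtubules, by 0.38. SPC24, another subunit of that complex, rose by 0.32 and CENPK, of the inner kinetochore, by 0.45. Dimmer NUF2 probes differed by -0.09 and 0.08 (limma adjusted p over all probes = 0.745 and 0.776), so the fall of NUF2 rests on its brightest probe. The other 7, among them CENPF (-0.19, adjusted p = 0.162), NDC80 (-0.06) and CENPN (-0.01), did not pass.

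Among the 5 checkpoint genes only BUB1, a kinase that recruits checkpoint proteins to kinetochores, passed. It stood at 7.22, 7.52 and 7.55 with DOX, against 7.85, 8.38 and 8.00 without, and fell by 0.65 ± 0.13 (SE; adjusted p = 0.000838). BUB3, its binding partner, stood at 12.70, 12.51 and 12.58 with DOX, against 12.48, 12.67 and 12.75 without. The BUB3 arrays overlapped, with a difference of -0.04 (adjusted p = 0.824), and MAD2L1, BUB1B and TTK differed by 0.06, -0.08 and -0.19 without passing.

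Of the spindle, midzone and cytokinesis genes, 4 of 8 fell: FAM83D, which recruits a kinesin to the spindle, by 1.30, DLGAP5, a spindle-stabilising protein, by 1.11, HMMR by 0.95 and ASPM, a protein of spindle poles, by 0.54. PRC1 (-0.18), NUSAP1 (-0.01), ANLN (-0.28) and ECT2 (0.33), which act at the midzone, on microtubules and in the cleavage furrow, did not pass. In the last set, PIMREG stood at 8.18, 8.24 and 8.23 with DOX, against 9.78, 9.47 and 9.71 without, and fell by 1.43 ± 0.10 (SE; adjusted p = 1.67e-10). MKI67, which encodes the proliferation antigen Ki-67, stood at 7.63, 7.54 and 7.55 with DOX, against 8.43, 8.13 and 7.90 without, and fell by 0.58. FOXM1, a transcription factor of these genes, stood at 9.97, 9.86 and 9.90 with DOX, against 10.27, 10.22 and 10.03 without. Its arrays did not overlap, but the difference of -0.26 did not pass (adjusted p = 0.0706), and MYBL2, a dim gene, differed by 0.09.

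**Figure D3:**
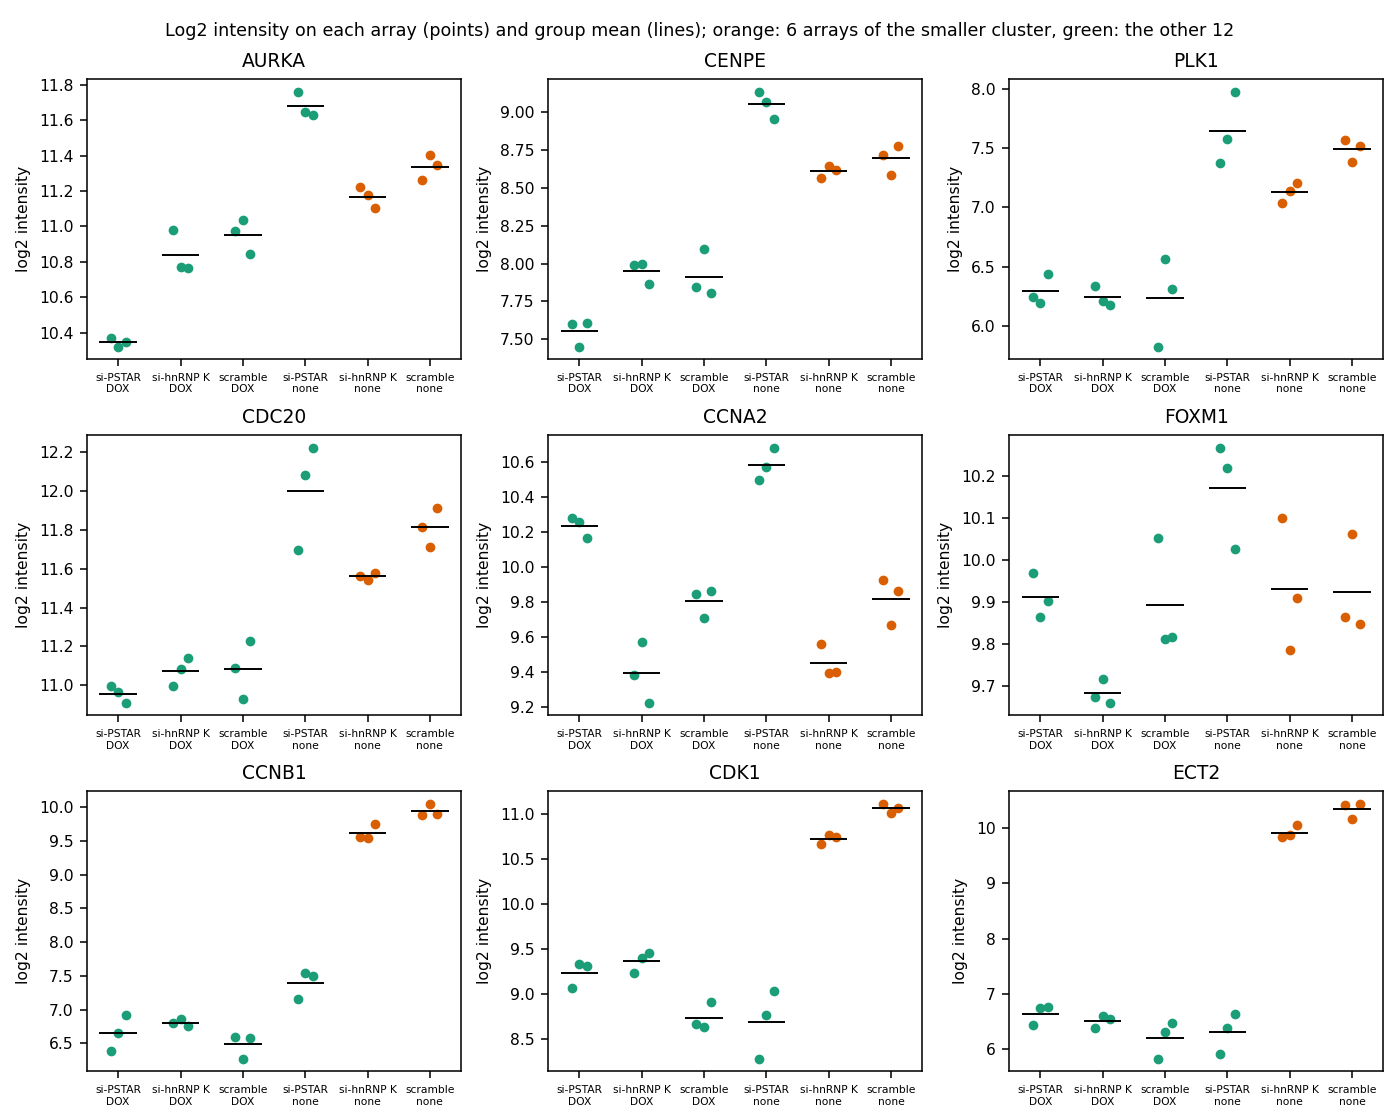
Log2 intensity on each array (points) and group mean (lines) for AURKA, CENPE, PLK1, CDC20, CCNA2, FOXM1, CCNB1, CDK1 and ECT2 in the 6 groups; orange marks the 6 arrays of the smaller cluster and green the other 12. AURKA, CENPE, PLK1 and CDC20 are lower with DOX under each siRNA, while CCNB1, CDK1 and ECT2 are high on the orange arrays alone.

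For 20 of the genes a second probe lay at or above the median of all probes, and in 16 of them it had the same sign as the brightest. The second probe fell by 1.38 for AURKA, by 1.16 for DLGAP5, by 1.09 for CENPA, by 0.79 for PTTG1 and by 0.64 for NEK2. A fit of the 6 compared arrays alone called 23 members lower and 0 higher, and 3 were higher at an unadjusted p under 0.05 (limma). Over all genes that fit called 884, against 2233 in the main fit, and its shares by direction are not given. Without the third DOX-treated si-PSTAR array, 1 member was called higher. In the same arrays CDKN1A was 0.76 log2 units higher with DOX (limma adjusted p = 9.193e-06), on its brightest probe. A dimmer probe differed by 0.02 (adjusted p over all probes = 0.963). The brightest probe averaged 11.80 with DOX and 11.04 without in si-PSTAR arrays, against 14.31 and 12.67 in scramble arrays. The dimmer probe differed from scramble arrays by -0.47 with DOX and by 0.57 without.

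Since 26 of the 50 genes fell in this comparison, the promoters of the 50 were read from the RefSeq table of GRCh38.p14, from 250 bases before to 50 after each annotated start. A promoter was listed for 40 of the 50 genes, 33 of them with 1 start. Motifs were searched on both strands. The CHR letters TTTGAA were found in 27 of 40, or 67.5%, against 18.17% of 27305 genes in the table, and at least 2 CCAAT boxes in 22 of 40, or 55.0%, against 12.91%. No match of 1 motif overlaps one of the other in the stretches below. PIMREG, AURKA and FAM83D, which fell more under DOX in si-PSTAR arrays than DLGAP5 and CDC20, had no listed promoter and were not searched. Among genes with a listed promoter, 1 start and a CHR, the 3 that fell most in that comparison are shown. Each stretch is the 150 bases ending just before the start, 5′ to 3′ on the gene's strand, with CHR and CCAAT letters in capitals.
PLK1: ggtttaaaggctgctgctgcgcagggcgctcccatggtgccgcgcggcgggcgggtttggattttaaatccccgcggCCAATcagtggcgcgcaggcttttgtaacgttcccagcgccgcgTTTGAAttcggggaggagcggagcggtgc
DLGAP5: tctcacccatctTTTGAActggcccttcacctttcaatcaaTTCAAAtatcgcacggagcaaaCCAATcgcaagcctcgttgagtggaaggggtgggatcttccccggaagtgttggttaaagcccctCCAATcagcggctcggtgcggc
CDC20: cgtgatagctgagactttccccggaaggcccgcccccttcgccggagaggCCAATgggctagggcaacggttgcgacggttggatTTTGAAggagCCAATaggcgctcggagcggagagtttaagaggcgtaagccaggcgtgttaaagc
The PLK1 stretch is chr16:23678739-23678888 on the plus strand, the DLGAP5 stretch chr14:55191586-55191735 on the minus strand and the CDC20 stretch chr1:43358831-43358980 on the plus strand. Counted back from the start, the CHR letters in these stretches begin at base -29 in PLK1 and at base -65 in CDC20. Those of DLGAP5 begin at -138 and, on the other strand, at -109. Outside the stretches, the searched window holds a further CHR at -178 in CDC20, on the other strand, and at base 4 after the start in DLGAP5. CCAAT begins at -73 in PLK1, at -87 and -22 in DLGAP5 and at -100 and -55 in CDC20.

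Of the 27 genes with a CHR, 14 fell and 1 rose under DOX in si-PSTAR arrays, with a median of -0.28. Of the 13 without, 6 fell and 2 rose, with a median of -0.26. Of the 22 genes with at least 2 CCAAT boxes, 15 fell and 3 rose (median -0.62), and of the 18 with fewer, 5 fell (median -0.17). CENPE, the gene with the largest fall, has neither a CHR nor a CCAAT in its window. These splits are descriptions and were not tested.

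With DOX, arrays labelled si-PSTAR had 9 of the 50 genes lower and 16 higher than scramble arrays, where 22.6% of all genes were lower and 22.4% higher. The groups did not overlap for 9 genes in the lower and 18 in the higher direction, against 25.9% and 26.5% of all genes. The 25 called genes compare with 45.0% of all genes in either direction, so the share of members called was near that of all genes, and the median difference was 0.11 against 0.012. BIRC5, the survivin gene, stood at 10.83, 10.89 and 10.87 in si-PSTAR arrays, against 9.38, 9.29 and 9.52 in scramble arrays, a difference of 1.46 ± 0.10 (SE; limma adjusted p = 6.00e-12). DLGAP5 stood at 7.70, 7.77 and 7.74, against 8.55, 8.61 and 8.95, and fell by 0.97 ± 0.12 (SE). BUB1 stood at 7.22, 7.52 and 7.55, against 6.74, 6.52 and 6.81, and rose by 0.74 ± 0.13 (SE). The arrays of these 3 genes did not overlap, and second probes differed by 1.16 for BIRC5 and by -1.10 for DLGAP5.

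The remaining calls ran both ways within a role. Among kinases, AURKA fell by 0.61 while AURKB rose by 0.59 and INCENP by 0.35. Among kinetochore genes, SPC24 fell by 0.67, CENPF by 0.48, CENPE by 0.36, CENPM by 0.36 and SGO1, the protector of centromeric cohesin, by 0.36, while SPC25 rose by 0.50 and CENPA by 0.36. MAD2L1 rose by 0.64, ESPL1 by 0.58, CDK1 by 0.50, CCNA2 by 0.43 and MYBL2 by 0.44, and BUB3 and CDC25B fell by 0.37 and 0.41. CCNB1 (0.17), PLK1 (0.06), CDC20 (-0.12), FOXM1 (0.02) and MKI67 (0.24, adjusted p = 0.0831) did not pass.

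Against the same scramble arrays, DOX-treated arrays labelled si-hnRNP K had 8 of the 50 genes lower and 9 higher, where 19.9% of all genes were lower and 19.8% higher (39.7% in either direction). The share of members called was near that of all genes. The si-hnRNP K arrays lay wholly below the scramble arrays for 13 genes and wholly above for 7, against 23.7% and 23.2% of all genes. BIRC5 stood at 10.41, 10.24 and 10.33 in si-hnRNP K arrays, against 9.38, 9.29 and 9.52 in scramble arrays. CDK1 stood at 9.23, 9.40 and 9.46, against 8.67, 8.64 and 8.91. BUB1 stood at 7.11, 7.45 and 7.40, against 6.74, 6.52 and 6.81. These 3 genes were higher on every si-hnRNP K array, by 0.93 ± 0.10, 0.63 ± 0.13 and 0.63 ± 0.13 (SE; limma adjusted p = 3.31e-08, 0.000281 and 0.000235). The second CDK1 probe differed by 0.13 (adjusted p over all probes = 0.614). CDC25B fell by 0.60, SPC24 by 0.55, CCNA2 by 0.41 and TPX2 by 0.41, and the count of genes called higher was 5 without the second scramble array or without the third si-hnRNP K array.

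The labelled knockdowns were also set against each other with DOX. Arrays labelled si-hnRNP K had 15 of the 50 genes lower and 8 higher than arrays labelled si-PSTAR, where 20.9% of all genes were lower and 22.3% higher (43.3% in either direction). The groups did not overlap for 20 genes in the lower and 10 in the higher direction, against 24.8% and 25.5% of all genes. DLGAP5 stood at 8.75, 9.15 and 9.04 in si-hnRNP K arrays, against 7.70, 7.77 and 7.74 in si-PSTAR arrays. CCNA2 stood at 9.38, 9.57 and 9.23, against 10.28, 10.25 and 10.16, and AURKB at 9.88, 10.51 and 10.09, against 11.03, 10.68 and 10.99. None of these overlapped, with differences of 1.24 ± 0.12, -0.84 ± 0.10 and -0.74 ± 0.13 (SE; limma adjusted p = 1.49e-09, 7.91e-08 and 3.88e-05). CENPA (-0.74), ESPL1 (-0.73), NUSAP1 (-0.60) and BIRC5 (-0.53) were also lower in si-hnRNP K arrays, and AURKA (0.49), CENPE (0.40) and CENPF (0.34) higher.

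Without drug, both groups of the smaller cluster could be compared. Arrays labelled si-hnRNP K had 20 of the 50 genes lower and 3 higher than scramble arrays, where 16.2% of all genes were lower and 17.0% higher. The median difference was -0.18 log2 units for the 50 genes and 0.003 for all genes. The si-hnRNP K arrays lay wholly below the scramble arrays for 26 genes and wholly above for 6, against 24.9% and 25.6% of all genes. The falls were small apart from PIMREG, the one member past 2-fold, which stood at 7.84, 7.54 and 7.71 in si-hnRNP K arrays, against 8.73, 8.64 and 8.86 in scramble arrays, a difference of -1.05 ± 0.10 (SE; limma adjusted p = 4.72e-09).

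All 7 genes of the cyclin and CDK1 set were called in that comparison, 6 lower and CCNF higher. CDC25B stood at 11.17, 10.87 and 10.97 in si-hnRNP K arrays, against 11.56, 11.54 and 11.53 in scramble arrays, and SPC24 at 9.18, 9.19 and 9.31, against 9.74, 9.64 and 9.71. They fell by 0.54 and 0.47, with no overlap. CDC25C fell by 0.39, CCNA2 by 0.37, CDK1 by 0.34, CCNB1 by 0.33 and CCNB2 by 0.28, and PLK1, TPX2 and NEK2 by 0.36, 0.35 and 0.37. BIRC5 (0.42), CCNF (0.38) and INCENP (0.37) rose. The count of genes called lower was 12 or 13 without the first or the second array of either group, and 13 after a background was subtracted, so many of these calls lie near the threshold.

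**Figure D4:**
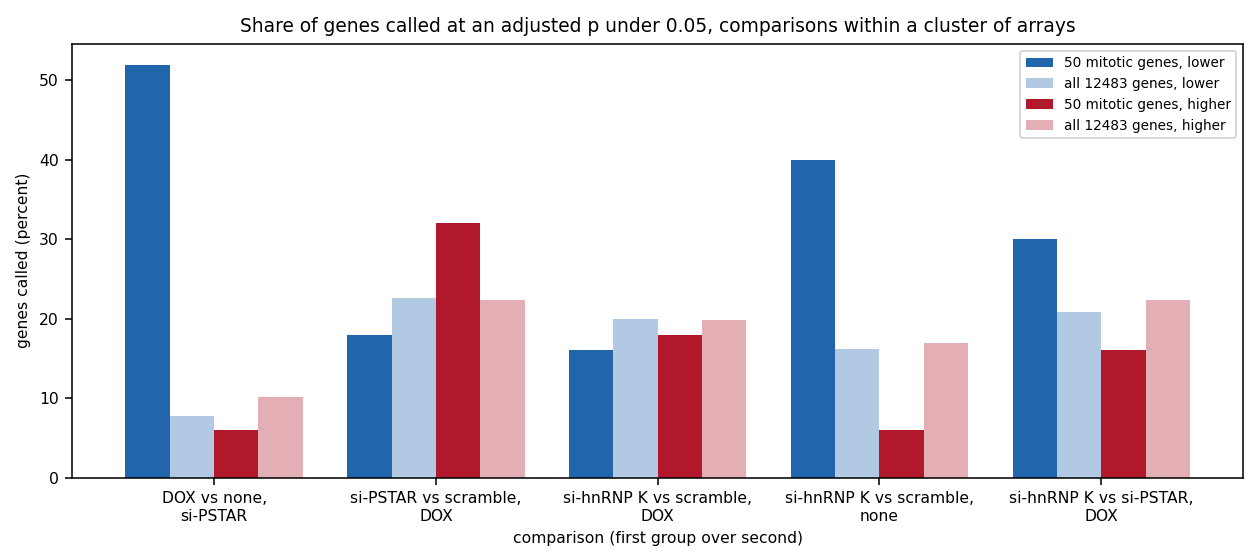
Percent of genes called lower (blue) and higher (red) at an adjusted p under 0.05 among the 50 mitotic genes (dark bars) and all 12483 genes (pale bars), for the 5 comparisons within a cluster; each compares the first group named with the second. The bars of the 50 genes rise farthest above the pale ones for lower calls under DOX in si-PSTAR arrays and for lower calls in untreated si-hnRNP K arrays.

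Counts of other genes of the pathway, from lists of related complexes, are set beside the shares of all genes. Under DOX in si-PSTAR arrays, where 7.69% of all genes were lower and 10.2% higher, 12 of 27 tested further mitotic regulators and spindle genes fell and 4 rose, among them GTSE1, a microtubule-associated p53 regulator, at -0.68 and MASTL, the Greatwall kinase, at 0.78. Of 25 further kinetochore and centromere genes, 4 fell and 7 rose, with HJURP, the chaperone of CENPA, at -0.54 and CENPU at 0.59. Of 15 condensin and cohesin genes, 3 fell, RAD21 by 0.74 the most, and 2 rose. ANAPC2, which fell by 0.47, was the one of 15 tested genes of the anaphase-promoting complex to pass, and of 12 MuvB and DREAM genes E2F5 fell by 0.41 and 2 rose. In untreated si-hnRNP K arrays against scramble, where 16.2% of all genes were lower and 17.0% higher, 7 of the 27 regulators fell and 2 rose, with ARPP19, a phosphatase inhibitor activated by MASTL, at -1.59 and CKS2, a CDK1-binding subunit, at -0.92; of the 25 kinetochore genes 3 fell and 6 rose. With DOX the 27 regulators were 7 lower and 11 higher in si-PSTAR arrays and 6 lower and 4 higher in si-hnRNP K arrays, each against the same scramble arrays; of all genes, 22.6% were lower and 22.4% higher in si-PSTAR arrays and 19.9% and 19.8% in si-hnRNP K arrays.

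The tests of response, given below, span both clusters. In the other comparisons the groups lie in different clusters, so that the drug or the siRNA label and the cluster cannot be told apart. In them, 11 of the 50 genes had their brightest probe higher on all 6 arrays of the smaller cluster than on all 12 of the larger, and 4 (CENPN, CENPM, CENPI and ESPL1) lower on all 6, against 8.97% and 14.5% of all genes. The 11 were ECT2 (by 3.70 log2 units), CCNB1 (2.95), NDC80 (2.47), CDCA3 (1.92), CDK1 (1.89), BUB1 (1.74), ANLN (1.68), BUB1B (1.61), DLGAP5 (1.40), ASPM (1.25) and TTK (0.89).

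In scramble arrays 24 of the 50 genes were lower and 9 higher with DOX, where 14.9% of all genes were lower and 50.3% higher (65.2% in either direction). The arrays with DOX lay wholly below those without for 24 genes and wholly above for 12, against 16.3% and 54.7% of all genes. ECT2, the exchange factor that activates RhoA for cytokinesis, stood at 5.83, 6.32 and 6.48 with DOX, against 10.41, 10.16 and 10.44 without. CCNB1 stood at 6.59, 6.27 and 6.59, against 9.89, 10.05 and 9.90, and CDK1 at 8.67, 8.64 and 8.91, against 11.12, 11.01 and 11.07. The differences were -4.13 ± 0.15, -3.47 ± 0.12 and -2.33 ± 0.13 (SE; limma adjusted p = 4.49e-18, 1.63e-18 and 2.06e-14). NDC80, at 5.79, 5.72 and 5.61 with DOX, against 8.44, 8.72 and 8.54 without, averaged 5.71 in the treated arrays, at the level of the median probe, so no fold is given. The 11 genes named above were all lower, with a median of -2.33. Their choice as higher on the smaller cluster fixed that direction in advance. Of the other 39, 13 were lower and 9 higher, with a median of 0.03. Leaving out the 11 also shapes the balance of the rest, here and in the comparisons below. No share of all genes after a like removal is given.

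Among those 39, several of the genes that fell under DOX in si-PSTAR arrays were also lower with DOX in scramble arrays, with values of -1.25 for PLK1, -0.78 for CENPE, -0.73 for CDC20, -0.58 for FAM83D, -0.51 for PIMREG, -0.45 for PTTG1 and -0.39 for AURKA. PLK1 stood at 5.83, 6.57 and 6.32 with DOX, against 7.57, 7.39 and 7.51 without, and CDC20 at 11.09, 10.93 and 11.23, against 11.82, 11.71 and 11.91. CENPE stood at 7.85, 8.09 and 7.81, against 8.72, 8.59 and 8.78, and AURKA at 10.97, 11.04 and 10.85, against 11.26, 11.40 and 11.35. None of these 4 overlapped. CCNA2 (-0.01), FOXM1 (-0.03, and 0.31 on its second probe) and MKI67 (0.15) did not pass, and SPC24 (0.80) and CENPM (0.73) rose. BUB3 differed by 0.27 on its brightest probe and by -3.40, -3.29 and -0.59 on its other 3 probes, so its direction depends on the probe.

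In arrays labelled si-hnRNP K 22 of the 50 genes were lower and 9 higher with DOX, where 13.2% of all genes were lower and 45.5% higher (58.8% in either direction). The groups did not overlap for 22 genes in the lower and 12 in the higher direction, against 14.6% and 51.0% of all genes. The 11 genes were again all lower, a direction fixed by their choice. Of the other 39, 11 were lower and 9 higher, a balance that leaving out the 11 genes also shapes. ECT2 stood at 6.39, 6.61 and 6.54 with DOX, against 9.83, 9.87 and 10.04 without, CCNB1 at 6.80, 6.85 and 6.76, against 9.56, 9.54 and 9.75, and CDCA3, a mitotic entry factor, at 7.54, 7.58 and 7.78, against 9.69, 9.75 and 9.72. The differences were -3.40, -2.81 and -2.09. PLK1 (-0.88), CCNF (-0.77), CENPE (-0.66), CDC20 (-0.49) and AURKA (-0.33) were lower too, and BUB1, at 7.11, 7.45 and 7.40, against 8.85, 9.03 and 9.05, differed by -1.66. FOXM1, at 9.67, 9.72 and 9.66, against 10.10, 9.79 and 9.91, differed by -0.25 on its brightest probe (limma adjusted p = 0.0338) and by 0.24 on its second, so its direction depends on the probe.

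Scaling the arrays by cyclic loess lowered the median of all genes by 0.19 in the scramble comparison of DOX with no drug and by 0.16 in the si-hnRNP K one, and moved the share of higher calls among all calls to 51.08%, against 77.17% as deposited, and to 49.8%, against 77.52%. With it, the 50 genes were 33 lower and 2 higher in scramble arrays and 31 lower and 3 higher in si-hnRNP K arrays. The shares of all genes called lower and higher under cyclic loess are not given. The cyclic loess counts here and below therefore have no background beside them. On its brightest probe, CDKN1A rose by 1.64 in scramble arrays and by 1.55 in si-hnRNP K arrays, and on its second by 1.05 and 0.28. Between labels, si-hnRNP K arrays differed from scramble arrays by -2.13 with DOX and by -2.05 without on the brightest probe. On the second probe they differed by 0.38 and 1.16.

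Without drug, arrays labelled si-PSTAR had 13 genes lower and 31 higher than scramble arrays, where 22.6% of all genes were lower and 43.6% higher (66.2% in either direction). The groups did not overlap for 13 genes in the lower and 30 in the higher direction, against 23.2% and 44.5% of all genes. The 11 genes were all lower, a direction fixed by their choice, with ECT2 at -4.02, NDC80 at -2.64, CCNB1 at -2.55 and CDK1 at -2.38. Of the other 39, 31 were higher and 2 lower, with a median of 0.52. That excess is shaped by the same choice, since leaving out the 11 genes took lower calls away. ECT2 stood at 5.91, 6.39 and 6.64 in si-PSTAR arrays, against 10.41, 10.16 and 10.44 in scramble arrays, and NDC80 at 6.15, 5.80 and 5.83, against 8.44, 8.72 and 8.54. ESPL1 (1.29), BIRC5 (1.25), AURKB (1.13), CENPA (0.98) and MKI67 (0.97) were among the higher ones, with MKI67 at 8.43, 8.13 and 7.90 in si-PSTAR arrays, against 7.07, 7.22 and 7.28 in scramble arrays. The direction of CENPE (0.36) and NEK2 (0.92) reversed on their second probes, at -1.12 and -3.51. So did that of HMMR (-2.32 on the second probe), NUF2 (-2.18), NUSAP1 (-1.47), MAD2L1 (-1.24), UBE2C (-0.65) and SPC25 (-0.64). Over 20 genes with a second probe, 11 kept their sign, and the median was 0.47 on the brightest probe and -0.64 on the second. The count of higher genes thus depends on the probe. Cyclic loess moved the median of all genes by -0.17 and gave 17 genes lower and 20 higher, with the share of higher calls among all genes at 45.5%, against 65.88% as deposited.

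Untreated arrays labelled si-hnRNP K had 33 genes lower and 12 higher than untreated arrays labelled si-PSTAR, where 43.7% of all genes were lower and 22.9% higher (66.6% in either direction). The groups did not overlap for 32 genes in the lower and 12 in the higher direction, against 44.7% and 23.8% of all genes. The 11 genes were all higher, a direction fixed by their choice, with ECT2 at 3.60, NDC80 at 2.30 and CCNB1 at 2.22. Of the other 39, 33 were lower, with PIMREG at -1.95, CENPA at -1.33 and NEK2 at -1.29 the most changed. That excess is shaped by the same choice, since leaving out the 11 genes took higher calls away. The second NEK2 probe went the other way, at 2.88. CCNB1 stood at 9.56, 9.54 and 9.75 in si-hnRNP K arrays, against 7.16, 7.55 and 7.50 in si-PSTAR arrays. Cyclic loess moved the median of all genes by 0.16 and gave 24 lower and 14 higher, with 53.65% of all calls higher, against 34.41% as deposited.

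For several genes the probes disagreed on the step between clusters, while within a cluster the brightest and second probe shared a sign for 14 to 16 of 20 genes. The brightest BUB3 probe averaged 12.64 log2 units on the 6 arrays and 12.74 on the 12, while 2 further BUB3 probes averaged 10.07 and 9.67 on the 6 arrays, against 6.86 and 6.38 on the 12. Second probes of NEK2 (by 3.74), HMMR (2.49), NUF2 (2.08), CENPE (1.60), NUSAP1 (1.52) and MAD2L1 (1.15) were likewise higher on all 6 arrays than on all 12, although the brightest probes of these genes overlapped. For CDK1 and DLGAP5 both probes showed the step, 2.80 and 1.11 on the second. In the scramble comparison of DOX with no drug, the second probe had the same sign as the brightest for 13 of 20 genes, and in the si-hnRNP K one for 11. Between untreated si-PSTAR and scramble arrays it did for 11, and between untreated si-hnRNP K and si-PSTAR arrays for 10. Within a cluster the count was 16 for DOX in si-PSTAR arrays, 15 for si-PSTAR with DOX against scramble and 14 for si-hnRNP K with DOX against scramble. It was 16 for si-hnRNP K without drug against scramble and 14 for si-hnRNP K against si-PSTAR with DOX. In the tests of response it was 8 for si-PSTAR and 18 for si-hnRNP K. The cause of the disagreement was not tested.

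**Figure D5:**
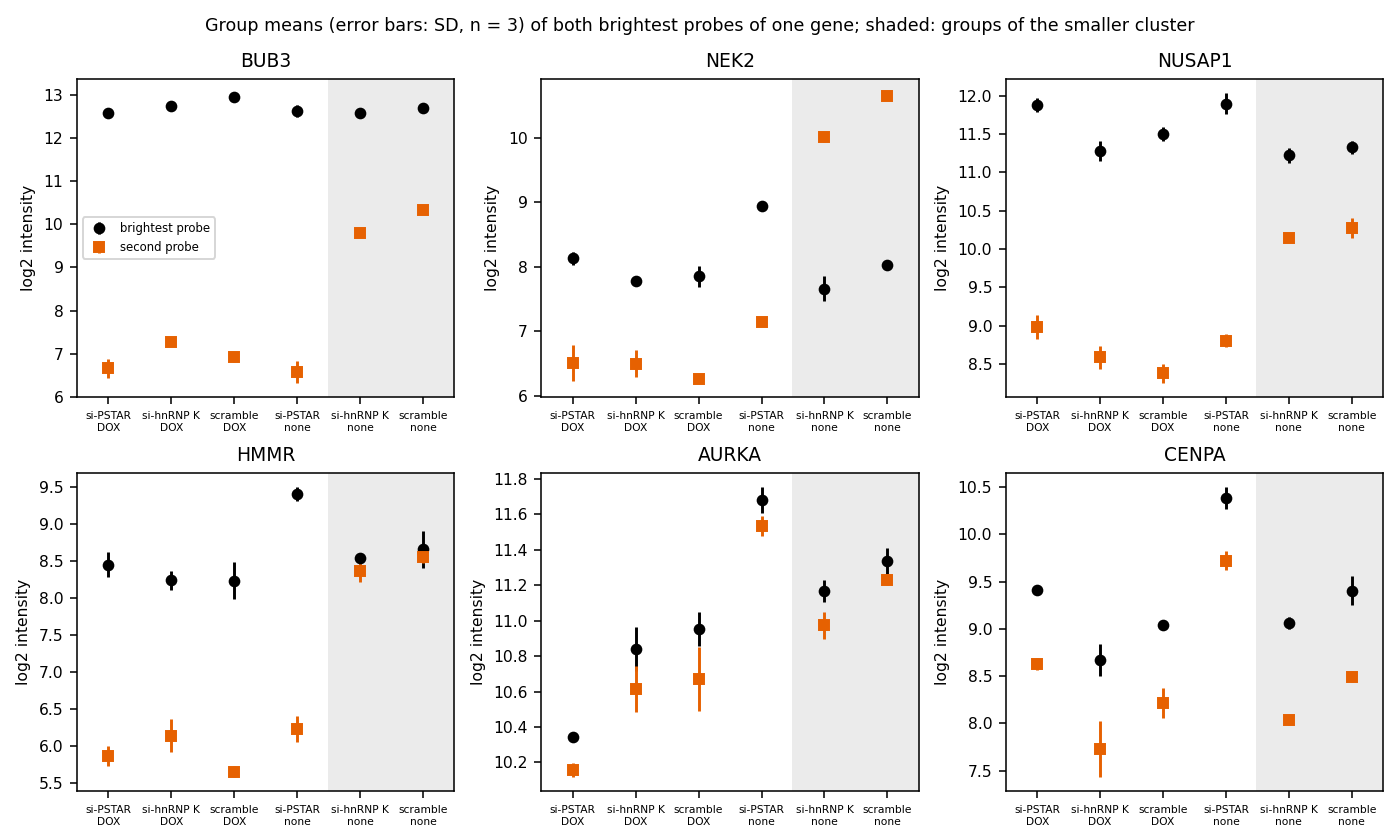
Group means (error bars are SD, n = 3) of the brightest probe (circles) and the second probe (squares) of BUB3, NEK2, NUSAP1, HMMR, AURKA and CENPA in the 6 groups; shading marks both groups of the smaller cluster. The probes of AURKA and CENPA move together across groups, while the second probes of BUB3, NEK2, NUSAP1 and HMMR are high in the shaded groups and the brightest ones are not.

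The direct tests of whether the DOX response differed between siRNA labels use arrays of both clusters. For si-PSTAR a difference in response and the clusters cannot be told apart. For si-hnRNP K a cluster step of equal size under both labels would cancel, but whether it was equal was not tested. The response in si-PSTAR arrays, minus that in scramble arrays, was lower for 26 of the 50 genes and higher for 10, where 38.8% of all genes were lower and 14.1% higher (52.9% in either direction). AURKA, one of those lower, differed by -0.95 ± 0.12 (SE; limma adjusted p = 6.991e-07) and its second probe by -0.82. The 10 higher values all belong to the 11 genes of the step, which were picked for high values on arrays that include untreated scramble. That choice favours higher values in this test. Cyclic loess gave 9 lower and 14 higher and moved the share of higher calls among all genes to 56.52%, against 26.58% as deposited. The same test for si-hnRNP K called 7 genes higher and 0 lower, and 3 were lower at an unadjusted p under 0.05 (limma). Of all genes, 2.05% were higher and 1.12% lower (3.17% in either direction). Among the 7, 5 belong to the 11 genes of the step. Cyclic loess moved the share of higher calls among all calls to 77.73%, against 64.65% as deposited.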

How the data were processed

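Values were the log2 intensities deposited by the authors for 43961 Illumina probes on 18 arrays. They were already quantile normalized by the authors, as read from the values: 99.9955% of ranks held the same value on all arrays within 0.01, and each array had a median of 5.7331. The software, and whether background was corrected, were not given in the sources used here; detection p-values were not used. A probe table gave 29511 probes 1 gene symbol, 0 several and 14450 none. Each of 19782 genes was given by its probe of highest mean. The 7299 genes whose mean lay below the median of all probe means were left out, and 12483 were tested.

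One model with a mean for each of the 6 groups was fitted with limma 3.58.1 in R 4.3.3 (lmFit and eBayes, two-sided), with Benjamini-Hochberg adjustment over all 12483 genes within each comparison and a threshold of 0.05. Every adjusted p is from limma. An exact permutation test of 3 arrays against 3 cannot go below 0.1 and was not used. A floor of 5.72 served as the level below which no fold is given. Each probe was also fitted alone, adjusted over all probes. The script was tested on simulated data. Figures were drawn with matplotlib 3.10.9 in Python 3.11.15.

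The members and gene lists were chosen with earlier results of these data known. Values on each array are given for CCNB1, CDK1, PLK1, AURKA, CDC20, CCNA2, CENPE, BUB1, FOXM1, MKI67 and BUB3 where a result turns on them, and in each comparison for up to 3 called members of largest change whose groups do not overlap; pathway lists name up to 2 called genes each. The alternatives tried were scaling by cyclic loess or to the 75th percentile, subtraction of a background (the 1st percentile of each array, with an offset of 16), a filter at the 70th percentile, no filter, other probes of a gene, the compared arrays alone, each array left out, a trended robust prior and a replicate block. Fits within 1 cluster of arrays were added after seeing the data.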

Additional observations from a re-analysis of the deposited data

Results flagged for a closer look

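These values test whether the DOX response differed between siRNA labels. In the si-PSTAR test only the untreated scramble arrays lie in the smaller cluster, so a difference in response and the clusters cannot be told apart. In the si-hnRNP K test the untreated arrays of both labels lie there, so a step of equal size would cancel. Whether it was of equal size was not tested. In arrays labelled si-PSTAR, against scramble arrays, the response was lower for 26 of the 50 genes and higher for 10 (limma, adjusted p under 0.05). Of all genes, 38.8% were lower and 14.1% higher. Cyclic loess turned the balance of the 50 genes to 9 lower and 14 higher. The balance over all genes turned too, with 56.52% of all calls higher, against 26.58% as deposited. As deposited, the response was higher for CDK1 by 2.87 log2 units (limma adjusted p = 7.12e-13), for CCNB1 by 2.72 (6.94e-13) and for BUB1 by 1.91 (1.69e-09). All 3 stood higher on the 6 arrays of the smaller cluster. For AURKA the difference was -0.95 (adjusted p = 6.99e-07), for MKI67 -0.73 (0.000376), for CENPE -0.72 (7.11e-05), for CCNA2 -0.33 (0.0451) and for BUB3 -0.31 (0.0421). The directions of CENPE and BUB3 reversed on other probes, at 0.73 on the second CENPE probe and at 3.49 and 3.33 on the next brightest BUB3 probes. In arrays labelled si-hnRNP K, against scramble arrays, the response was higher for 7 of the 50 genes, where 2.05% of all genes were higher and 1.12% lower. Among the 7 were CDK1 by 0.96 (limma adjusted p = 0.0028), BUB1 by 0.90 (0.00413) and CCNB1 by 0.65 (0.0324). Of the 7, 5 belong to the 11 genes that stood higher on the 6 arrays of the smaller cluster, CDK1, BUB1 and CCNB1 among them. The second CDK1 probe differed by 0.43 (limma adjusted p over all probes = 0.267).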

How the results depend on the processing

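The counts below are of the 50 genes called by limma, and the cause of each shift was not tested unless stated. Within a cluster, the count lower with DOX in si-PSTAR arrays was 26 and lay between 22 and 27 under every alternative run, while the count higher was 3, was 0 in a fit of the compared arrays alone, which has fewer arrays (3 at an unadjusted p under 0.05), and was 1 to 3 with each array left out; over all genes the calls numbered 2233, 884 in that fit and 1378 to 2289 with each array left out, the lowest without the second DOX-treated si-PSTAR array. For si-hnRNP K with DOX against scramble, 9 genes were higher, and 5 to 10 with each array left out. For si-hnRNP K without drug against scramble, 20 were lower, 13 with a background subtracted and 12 to 21 with each array left out; 3 were higher, and 6 both in the compared arrays alone and in the 6 arrays of the smaller cluster, the same fit. BUB3 in si-hnRNP K against scramble with DOX was 0.35 on its second probe, against -0.21 on its brightest.

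Across clusters, cyclic loess and the choice of probe moved more. With cyclic loess the count higher was 20 for si-PSTAR against scramble without drug, 2 for DOX in scramble arrays and 3 for DOX in si-hnRNP K arrays, and FOXM1 was -0.042 for si-PSTAR against scramble and 0.0135 for si-hnRNP K against si-PSTAR without drug. The count lower in the si-PSTAR test of response was 9 with cyclic loess, and the count higher was 17 with the mean of a gene's probes and 18 with its second probe. For si-PSTAR against scramble without drug, 20 genes were lower with the mean of probes and 21 with the second probe, and CENPE was -0.38 and -1.12. For si-hnRNP K against si-PSTAR without drug, 20 were higher with the second probe, CENPE was 0.34 and 1.12 and BUB3 1.75 and 3.24 with the mean and the second probe. BUB3 was -1.75 and -3.40 for DOX in scramble arrays and -1.51 and -2.53 for DOX in si-hnRNP K arrays with the mean and the second probe, and FOXM1 on its second probe was 0.31 and 0.24. In the si-PSTAR test of response CENPE was 0.008 and 0.73 and BUB3 1.78 and 3.49 with the mean and the second probe. In the si-hnRNP K test of response 7 genes were higher, 4 with a background subtracted and 4 to 10 with each array left out, and BUB3 was 0.87 on its second probe; over all genes the calls numbered 396, 215 with a background subtracted, 661 in the compared arrays alone and 205 to 581 with each array left out. Over all genes, cyclic loess gave 4594 calls for DOX in si-hnRNP K arrays, against 7335 as deposited, and 4078 in the si-PSTAR test of response, against 6600.

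Replicate numbers did not pair the arrays: same-numbered arrays of different groups correlated at -0.19 to 0.19 in their deviations from group means over 45 pairs. With a replicate block, the genes lower and higher with DOX in si-PSTAR arrays numbered 26 and 3, and those for si-hnRNP K against scramble without drug 20 and 4. Dim probes limit the size of the largest falls: NDC80 averaged 5.71 in scramble arrays with DOX, at the median of all probes.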
